A study of Mus musculus with 15 samples.

Results

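The mir-378 family was examined in left ventricular (LV) heart tissue of mice. Its members were all rows of the deposited read counts whose miRNA name starts with mir-378, which gave 8 of 1836 rows, both arms of mir-378a, mir-378b, mir-378c and mir-378d (4 precursors). Reads fell on 4 of these rows, namely mir-378a-3p, mir-378b-3p, mir-378c-5p and mir-378d-5p. The opposite arms, mir-378a-5p, mir-378b-5p, mir-378c-3p and mir-378d-3p, were listed at 0 in each of the 15 libraries. By counting error alone, a count of 0 would allow up to 3 reads, or 5.26 to 8.20 CPM (reads scaled by library size). However, the 3p rows of mir-1a and mir-133a, known to be among the most abundant miRNAs of heart muscle, were also listed at 0 in every library, so that a 0 here gives what the table lists and sets no limit on the level of an arm. Reads on only 1 arm were common in the whole table, where 450 of 918 precursors (49.0%) had them on 1 arm, 357 (38.9%) on both and 111 (12.1%) on neither.

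AGAT (arginine:glycine amidinotransferase) catalyses the first step of creatine synthesis and also makes homoarginine. Mice lacking the enzyme (AGAT-/-) were compared with wild type (wt) littermates and with AGAT-/- mice given homoarginine through osmotic mini pumps for 4 weeks (AGAT-/-hArg), with 5 mice and 5 libraries per group. All mice were on a C57BL/6J background after backcrossing, and wt and AGAT-/- mice carry the treatment label control. The knockout is constitutive, not limited to the heart, and is shared by the AGAT-/- and AGAT-/-hArg groups. Wt and AGAT-/- libraries were sequenced on lane 8 and all AGAT-/-hArg libraries on lane 2, so that lane and supplementation cannot be told apart in any comparison with AGAT-/-hArg mice.

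MiRNAs guide the silencing of mRNAs that pair with their seed, the bases 2 to 8 from the 5′ end. Mir-378a lies in an intron of Ppargc1b, which encodes PGC-1β, a coactivator of genes of mitochondrial oxidation, and the miRNA is made together with its host gene. It is known as one of the abundant miRNAs of cardiac and skeletal muscle, and loss of mir-378a in mice raises oxidative metabolism and protects from diet-induced obesity. In heart muscle cells it is also known to restrain hypertrophic growth. Mir-378b, mir-378c and mir-378d are separate genes with closely related mature sequences.

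The mature sequences are shown because the reads of the family are divided among rows that differ by few bases. Sequences of 3 of the 4 precursors were read from RefSeq (GRCm38.p6), with the seed in capitals, and mir-378a was not in the table used.
miR-378b: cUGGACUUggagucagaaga
miR-378c: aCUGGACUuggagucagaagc
miR-378d: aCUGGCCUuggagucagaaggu
MiR-378b has 20 bases, miR-378c 21 and miR-378d 22. MiR-378b and miR-378c share an unbroken run of 19 bases, which starts at position 1 of miR-378b and at position 2 of miR-378c. The same bases therefore stand 1 position earlier in miR-378b, and its seed is shifted against that of miR-378c. Counted from 1 at the 5′ end of miR-378c and with miR-378b set against its position 2, these miRNAs differ by C21A, and 19 of 20 aligned bases are the same. MiR-378d differs from miR-378c by A6C, which lies in the seed, and by C21G, with 19 of 21 aligned bases the same. All 3 sequences share a run of 14 bases that starts at position 7 of miR-378c and miR-378d and at position 6 of miR-378b. None of the 3 seeds was shared with any of the other mature miRNAs among the 1738 of the table. Mir-378a was not among the 1738, so its seed and bases were not compared with those of miR-378b, miR-378c and miR-378d.

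The position of the mature sequence within its hairpin gives the arm of each row, and the mature part is in capitals below.
mir-378b: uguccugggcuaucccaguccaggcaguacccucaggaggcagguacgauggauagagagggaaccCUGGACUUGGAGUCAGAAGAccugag
mir-378c: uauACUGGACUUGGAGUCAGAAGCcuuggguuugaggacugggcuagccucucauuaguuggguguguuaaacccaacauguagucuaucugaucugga
mir-378d: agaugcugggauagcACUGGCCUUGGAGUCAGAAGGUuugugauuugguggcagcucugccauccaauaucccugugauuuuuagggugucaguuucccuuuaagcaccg
The mature sequence starts at base 67 of the 92 bases of mir-378b, towards the 3′ end, and at base 4 of 99 in mir-378c and base 16 of 110 in mir-378d, towards the 5′ end. These positions correspond to the arms on which the reads were counted. In the GRCm38 assembly, the build named in the submitters' processing notes, mir-378b lies on the plus strand of chromosome 11 from 88352773 to 88352864, inside an intron of Msi2, which is encoded on the opposite strand (GENCODE M21 annotation). Mir-378c lies on the minus strand of chromosome 14 from 46954830 to 46954928, inside an intron of Samd4, also on the opposite strand. Mir-378d lies on the minus strand of chromosome 10 from 126710282 to 126710391 and overlaps no annotated gene, its nearest protein-coding gene being Atp23 at a distance of 158036 bases.

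Libraries held between 365634 and 570492 reads. The mir-378 family took between 72.6% and 74.9% of all reads in wt mice (mean 73.5% ± 0.993, SD, n = 5), between 72.0% and 73.2% in AGAT-/- mice (72.8% ± 0.486) and between 70.7% and 73.2% in AGAT-/-hArg mice (72.0% ± 0.925). The ranges of the 3 groups overlapped. These shares and the ranks that follow hold within the rows that this table lists with reads, since mir-1a-3p, mir-133a-3p and mir-143-3p, abundant in heart, were listed at 0. Mir-378a-3p held the most reads of the listed rows over the 15 libraries (45.0% of all reads) and mir-378c-5p came next (19.9%). Mir-378d-5p ranked 3 in wt mice (7.98%, beside 7.65% for mir-151-3p) and in AGAT-/- mice (7.86% beside 7.72%), and ranked 4 behind mir-151-3p in AGAT-/-hArg mice (7.15% beside 7.81%). Over the 15 libraries mir-378b-3p ranked 23 with 0.219%. In each of the 15 libraries the order within the family was mir-378a-3p, mir-378c-5p, mir-378d-5p and mir-378b-3p, with no overlap between neighbours. This is an order of reads, since mature miRNAs are of nearly equal length and capture of each sequence in the library is not known. By group, mir-378b-3p ranked 41 in wt, 42 in AGAT-/- and 13 in AGAT-/-hArg mice.

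Levels are given below as CPM after TMM scaling, which gives each library a scaling factor on the assumption that most rows do not differ. Mir-378a-3p was at 477827 ± 36066 CPM in wt, 447788 ± 21187 CPM in AGAT-/- and 427418 ± 18791 CPM in AGAT-/-hArg mice (mean ± SD, n = 5 each). Mir-378c-5p was at 199291 ± 5974, 207879 ± 6588 and 189851 ± 9108 CPM in the same order of groups. For mir-378d-5p the values were 82660.3 ± 7497, 79298 ± 3207 and 68427 ± 4793 CPM. Mir-378b-3p stood at 1085 ± 64.1, 1063 ± 56.0 and 4253 ± 225 CPM. The group means of the 3 abundant rows lay close together, whereas mir-378b-3p had a much higher level in AGAT-/-hArg mice than in both other groups.

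**Figure D1:**
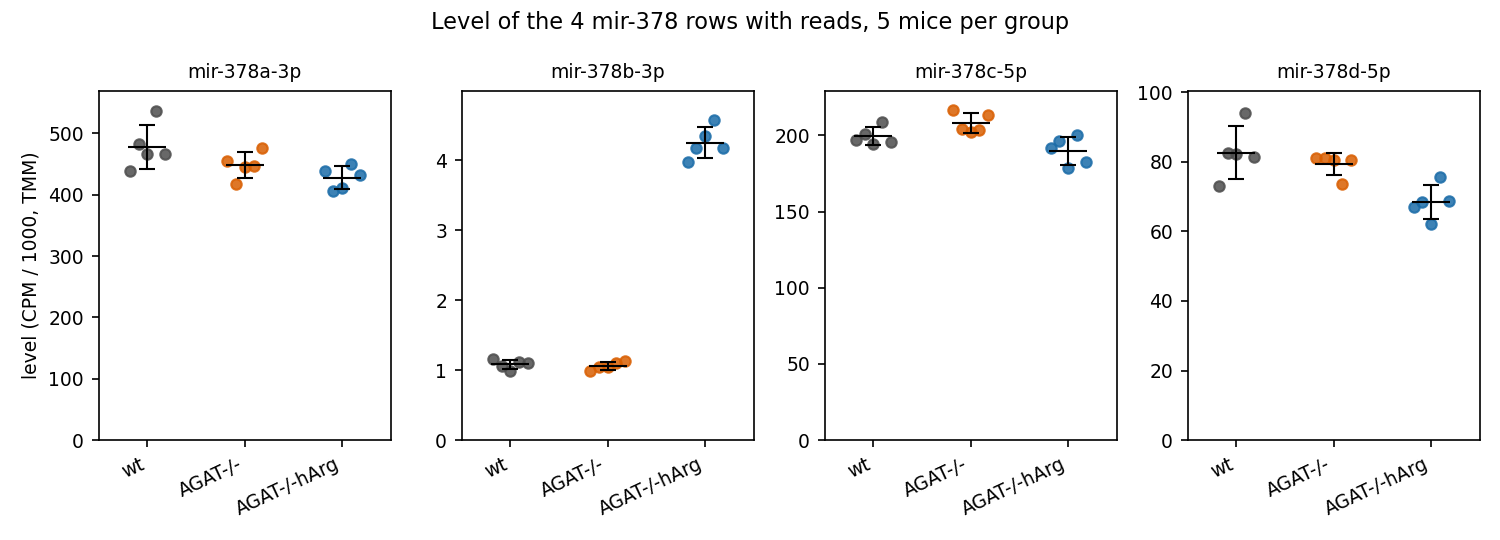
Level of the 4 mir-378 rows with reads, as CPM divided by 1000 after TMM scaling, for each of the 5 wt, 5 AGAT-/- and 5 AGAT-/-hArg mice (points), with the group mean and SD (bars). The axes start at 0 and differ between panels. The AGAT-/-hArg mice stand apart from both other groups for mir-378b-3p, at 3978 to 4578 CPM against 983 to 1156 CPM.

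The spread among mice of a group is given beside that of other rows. The coefficient of variation (CV, SD as a percentage of the mean) was between 3.00% and 9.07% over the 4 rows and 3 groups. The median CV of the 44 rows with at least 300 reads in every library was 10.7% in wt, 8.34% in AGAT-/- and 8.82% in AGAT-/-hArg mice. Most of these rows held fewer reads than mir-378a-3p, mir-378c-5p and mir-378d-5p, so that counting error adds more to their CV. Rows of like depth were not compared. For mir-378b-3p, counting error alone gives 4.63%, 4.60% and 2.23% in wt, AGAT-/- and AGAT-/-hArg mice, beside observed values of 5.91%, 5.27% and 5.30%. For mir-378a-3p, counting error was about 0.22% in all groups, beside 7.55%, 4.73% and 4.40% observed, so that counting error was a small part of its spread. The spread also depended on the scale. The CV was 2.39%, 1.72% and 1.82% as a share of all reads of a library. Per 1000 reads outside the family it was 6.21%, 2.82% and 4.34%. What part TMM scaling has in the spread of CPM was not tested.

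The AGAT-/- and wt groups were compared to ask how loss of AGAT changes the family. No mir-378 row differed in level at a false discovery rate (FDR) of at most 0.05 by edgeR's quasi-likelihood test with Benjamini-Hochberg adjustment (0 of 4, with 12 of all 562 rows tested called, 2.14%). At an unadjusted p below 0.05 there were 60 rows in all, among them mir-378a-3p. Its log2 fold change was -0.11 (SE 0.05, unadjusted p = 0.0442, FDR = 0.434). The values of the other rows were -0.04 for mir-378b-3p (FDR = 0.965), 0.05 for mir-378c-5p (FDR = 0.779) and -0.07 for mir-378d-5p (FDR = 0.764), beside a median of -0.04 over all rows tested. The sign for mir-378b-3p depended on the scaling, with 0.00 under total counts.

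Within the family, however, the composition differed between AGAT-/- and wt mice. Shares of the family's reads do not depend on the scaling of libraries and were compared by exact permutation tests of 1 value per mouse over all assignments of 10 mice to 2 groups of 5, two-sided, where the smallest p possible is 0.00794. In all, 12 such tests were made, 4 rows in 3 comparisons, and since shares add up to 100% they are not independent. The counting of reads that match several rows of the family is not given in the sources used here. What part such reads have in differences of share was not tested. Mir-378a-3p made up 61.8%, 62.9%, 62.7%, 63.8% and 62.6% of the family's reads in the 5 wt mice and 60.4%, 59.3%, 61.1%, 61.6% and 61.7% in the 5 AGAT-/- mice. Each AGAT-/- mouse was below each wt mouse, although the highest AGAT-/- value lay close to the lowest wt value. The mean share fell from 62.8% to 60.8%, a difference of -1.94 percentage points (exact permutation p = 0.00794).

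Mir-378c-5p took 27.7%, 26.2%, 26.1%, 24.9% and 26.3% of the family's reads in wt mice and 28.7%, 29.0%, 27.7%, 28.1% and 27.7% in AGAT-/- mice. Apart from wt mouse 1, at 27.7%, the wt mice were all below the AGAT-/- mice. Its mean share rose from 26.2% to 28.3%, by 2.01 percentage points (exact permutation p = 0.0159). Set against mir-378a-3p alone, mir-378c-5p had between 389.8 and 448.2 reads per 1000 reads of mir-378a-3p in wt mice (mean 418 ± 20.7, n = 5) and between 448.3 and 489.9 in AGAT-/- mice (465 ± 17.5, n = 5). The groups did not overlap, but wt mouse 1 and AGAT-/- mouse 10 nearly met. On this scale 3.39% of the rows other than mir-378a-3p were higher in AGAT-/- mice without overlap and 0.535% were lower. The mean log2 ratio differed by 0.15 (exact permutation p = 0.00794), where 8.56% of these rows were higher with a p of at most 0.05 and 2.67% lower. The shares of mir-378b-3p (0.143% in wt and 0.145% in AGAT-/- mice, exact permutation p = 0.841) and mir-378d-5p (10.9% and 10.8%, p = 0.778 by the same exact test) did not pass the test.

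As a share of all reads of a library, which was also computed for every other miRNA, mir-378c-5p was higher in AGAT-/- mice (20.6% against 19.3%, exact permutation p = 0.00794), with no overlap between the groups. Of all 562 rows, 3.74% did not overlap on this scale. Mir-378a-3p was lower (44.3% against 46.1%, exact permutation p = 0.0159). With these, 2 of 4 mir-378 rows reached a p of at most 0.05 in either direction, beside 10.5% of all rows. Shares of a library also shift with any other abundant miRNA, and the level of neither row passed the FDR.

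**Figure D2:**
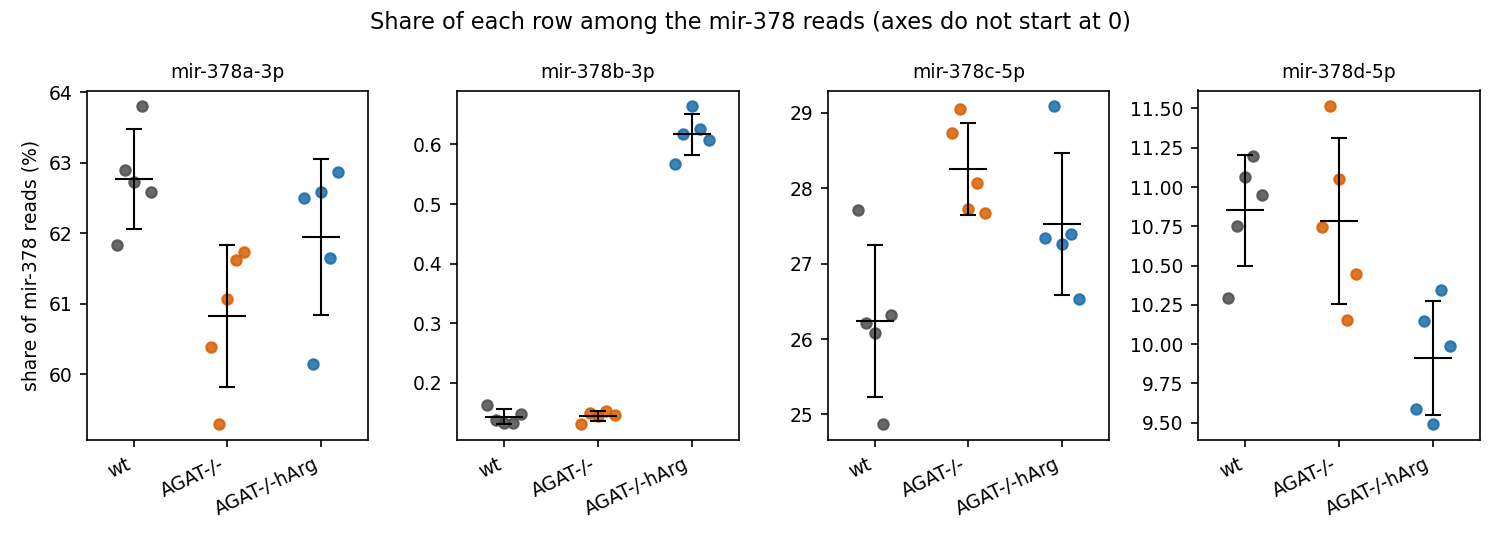
Share of each row among all mir-378 reads, in per cent, for each of the 5 wt, 5 AGAT-/- and 5 AGAT-/-hArg mice (points), with the group mean and SD (bars). The axes do not start at 0. AGAT-/- mice are below wt mice for mir-378a-3p (59.3% to 61.7% against 61.8% to 63.8%), and AGAT-/-hArg mice are above both groups for mir-378b-3p.

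Homoarginine-supplemented AGAT-/-hArg mice were compared with AGAT-/- mice to ask how the supplement changes the family in the absence of AGAT. Of the 4 rows, 1 passed the FDR, mir-378b-3p, where 4 of all 580 rows tested (0.69%) were called and 43 had an unadjusted p below 0.05. Mir-378b-3p was the only row called higher. It had 408, 605, 385, 528 and 488 reads in the AGAT-/- libraries and 1912, 2542, 1849, 1785 and 2096 in the AGAT-/-hArg libraries. The levels were 983, 1050.4, 1052, 1100.2 and 1131 CPM against 3978, 4175, 4352, 4578 and 4179 CPM, so that the lowest supplemented mouse was far above the highest AGAT-/- mouse. In CPM, 1.03% of all rows were higher in AGAT-/-hArg mice without overlap. The log2 fold change was 2.01 (SE 0.08, FDR = 4.03e-15). Lane 2 holds all of the supplemented libraries, and the part of the lane and that of the supplement in this rise cannot be told apart.

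Mir-378b-3p was also higher when set against the other rows of its family. Its share of the family was 0.130%, 0.149%, 0.144%, 0.152% and 0.147% in AGAT-/- mice and 0.568%, 0.618%, 0.664%, 0.626% and 0.608% in AGAT-/-hArg mice (exact permutation p = 0.00794). Per 1000 reads of mir-378a-3p it had between 2.16 and 2.52 reads in AGAT-/- mice and between 9.09 and 10.6 in AGAT-/-hArg mice. Per 1000 reads of mir-378c-5p, with which miR-378b shares the run of 19 bases, the values were 4.54 to 5.41 and 20.8 to 24.4. Within each group these ratios varied little, with a mean of 22.4 ± 1.43 per 1000 reads of mir-378c-5p in AGAT-/-hArg mice (n = 5). How reads that match several of these rows were counted is not given in the sources used here. The counts of near-identical rows are therefore uncertain, and what part such reads have in the rise of mir-378b-3p was not tested.

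The abundant rows were lower by small amounts or had values close to 0 in AGAT-/-hArg compared with AGAT-/- mice, and none of these 3 passed the FDR. Mir-378d-5p was closest, with a log2 fold change of -0.20 (SE 0.05, FDR = 0.0563). Its levels were 80999.6, 80976, 80447.5, 73581 and 80486 CPM in AGAT-/- mice and 67149.5, 68501, 62209, 75605 and 68670.2 CPM in AGAT-/-hArg mice. The groups overlapped because AGAT-/- mouse 9 lay below AGAT-/-hArg mouse 14. Without AGAT-/- mouse 9 the log2 fold change was -0.24 (FDR = 0.0397). Mir-378d-5p passed in 4 of 10 fits without a mouse (FDR 0.0023 to 0.198). It passed in 3 of 8 other fits with all mice (FDR 0.013 to 0.24).

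Mir-378d-5p also lost share within the family. It took 10.7%, 11.5%, 11.1%, 10.2% and 10.4% of the family's reads in AGAT-/- mice and 9.59%, 10.1%, 9.49%, 10.3% and 9.99% in AGAT-/-hArg mice. The mean fell from 10.8% to 9.91%, a difference of -0.872 percentage points (exact permutation p = 0.0159), with AGAT-/-hArg mouse 14 above the lowest AGAT-/- mouse. The log2 fold change of mir-378c-5p was -0.12 (SE 0.04, FDR = 0.196), although its levels of 178728 to 200208 CPM in AGAT-/-hArg mice were all below the 201854 to 216553 CPM of AGAT-/- mice. The same held for 1.38% of all rows. The value of mir-378a-3p was -0.06 (FDR = 0.831), and its sign turned under scaling by total counts (0.01). The family shares of mir-378a-3p (difference 1.13 percentage points, exact permutation p = 0.151) and mir-378c-5p (-0.730, p = 0.175 by the same exact test) did not pass. Without AGAT-/-hArg mouse 12, the share of mir-378a-3p was higher by 1.58 points (exact permutation p = 0.0397) and that of mir-378c-5p lower by a difference of -1.12 (exact permutation p = 0.0238).

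On the scale of all reads of a library, 2 of 4 mir-378 rows had a p of at most 0.05 in this comparison, beside 7.41% of all rows. These were mir-378b-3p (0.444% in AGAT-/-hArg against 0.105% in AGAT-/- mice, exact permutation p = 0.00794) and mir-378d-5p (7.14% against 7.85%, exact permutation p = 0.0159). Only mir-378b-3p of the family had groups that did not overlap on this scale, beside 2.24% of all rows.

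AGAT-/-hArg and wt mice differ in genotype, supplement and lane at the same time. The wt mice are the same as those above, so that this comparison is not independent of the others. Of the 4 rows, 2 passed the FDR, mir-378b-3p higher and mir-378d-5p lower, where 17 of all 569 rows tested (2.99%) were called, 9 higher and 8 lower. Under scaling by total counts 24 rows were called, 16 higher and 8 lower, and the median log2 fold change of all rows moved from 0.02 to 0.12. Mir-378b-3p was at 1156, 1059, 988, 1118 and 1102 CPM in wt mice, apart from the 3978 to 4578 CPM of AGAT-/-hArg mice, with a log2 fold change of 1.97 (SE 0.08, FDR = 1.55e-13), where 1.76% of all rows were higher without overlap. Its family share was 0.163%, 0.138%, 0.133%, 0.133% and 0.148% in wt mice, which is close to the values of AGAT-/- mice and below all those of AGAT-/-hArg mice (exact permutation p = 0.00794).

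Mir-378d-5p was at 73061, 82427, 82277, 94104 and 81432 CPM in wt mice, and was lower in AGAT-/-hArg mice with a log2 fold change of -0.27 (SE 0.06, FDR = 0.0131). Wt mouse 4 was highest, and wt mouse 1 lay below AGAT-/-hArg mouse 14, the only overlap between the groups. With total counts in place of TMM the log2 fold change was -0.16 (FDR = 0.0424). It no longer passed without AGAT-/-hArg mouse 11 (FDR = 0.0993) or AGAT-/-hArg mouse 15 (FDR = 0.0554). Its share of the family was 10.3%, 10.7%, 11.1%, 11.2% and 10.9% in wt mice, and the mean of AGAT-/-hArg mice differed by -0.940 percentage points (exact permutation p = 0.0159).

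The other rows did not pass the FDR against wt mice. The log2 fold change of mir-378a-3p was -0.16 (SE 0.05, FDR = 0.0718), and only -0.05 (FDR = 0.519) under total counts. That of mir-378c-5p was -0.07 (FDR = 0.595), with 0.04 under total counts. Family shares differed by -0.815 percentage points for mir-378a-3p (exact permutation p = 0.175) and by 1.28 for mir-378c-5p (exact permutation p = 0.0873). For mir-378c-5p the share passed without wt mouse 1 (1.65 points, exact permutation p = 0.0159) or without AGAT-/-hArg mouse 15 (1.53 points, exact permutation p = 0.0397). As shares of all reads, 3 of 4 mir-378 rows had a p of at most 0.05 against wt mice, beside 14.1% of all rows. They were mir-378a-3p (44.6% against 46.1%, exact permutation p = 0.0317), mir-378b-3p (0.444% against 0.105%, exact permutation p = 0.00794) and mir-378d-5p (7.14% against 7.98%, exact permutation p = 0.0159). Groups did not overlap for mir-378b-3p, where 5.27% of all rows did not.

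**Figure D3:**
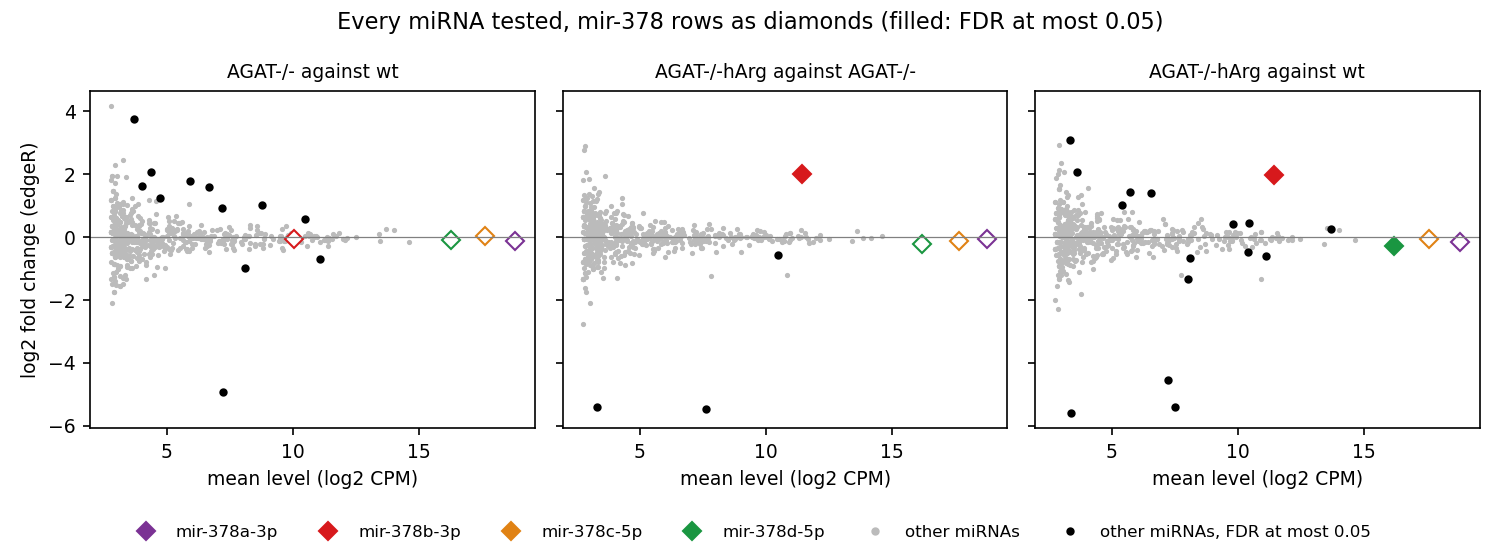
Log2 fold change of each miRNA tested in the 3 comparisons (vertical axis) against its mean level in log2 CPM (horizontal axis). Diamonds are the 4 mir-378 rows, filled at an FDR of at most 0.05, and black points are other rows past that FDR. Mir-378b-3p lies at 2.01 and 1.97 in the comparisons with AGAT-/-hArg mice, and the other mir-378 rows lie between -0.27 and 0.05.

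**Figure D4:**
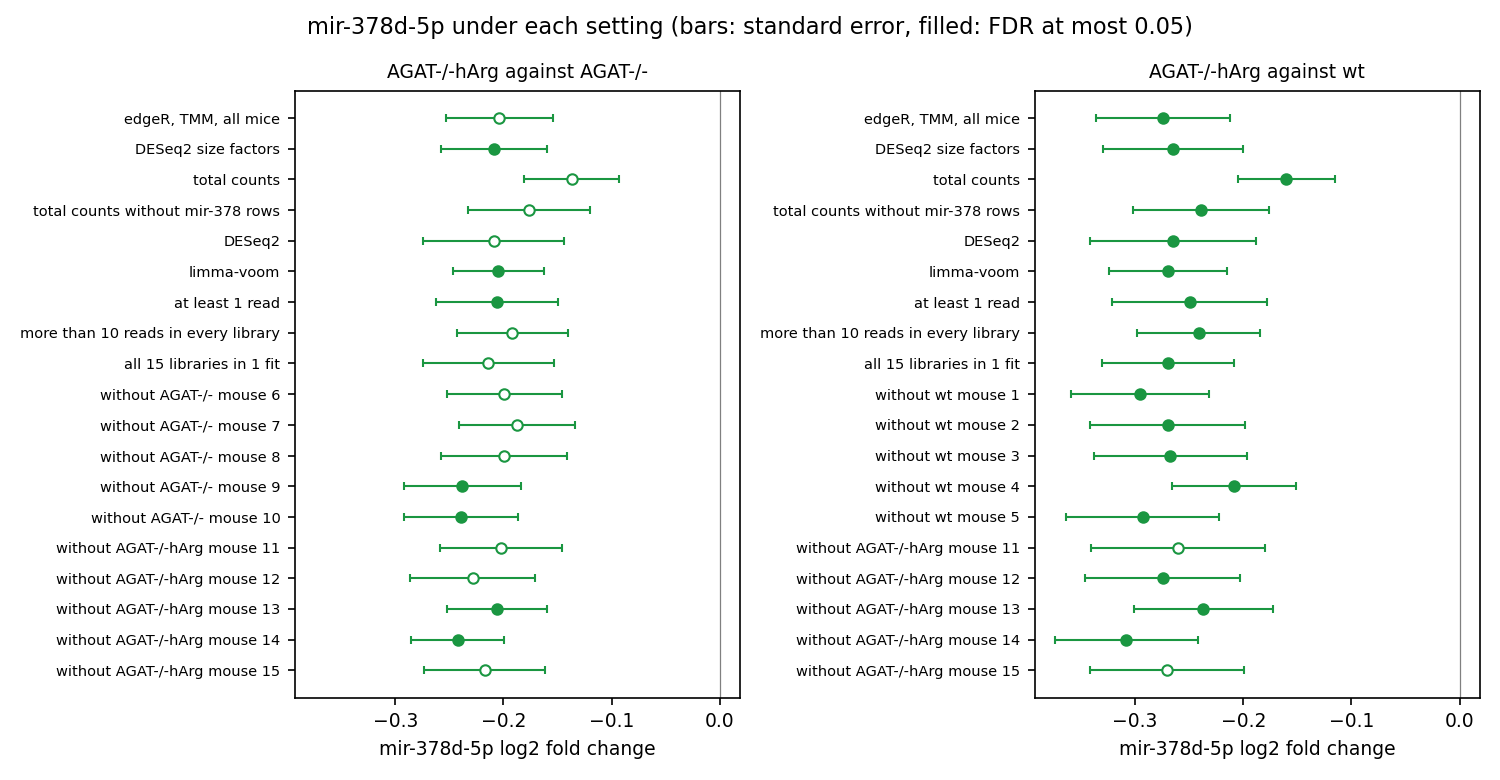
Log2 fold change of mir-378d-5p with its standard error in the comparisons of AGAT-/-hArg with AGAT-/- and wt mice, for each way of fitting the counts and without each mouse in turn. Filled points are at an FDR of at most 0.05. All values are below 0, and against wt mice they lie between -0.31 and -0.16.

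The genomic position of mir-378a is given for completeness of the family. It lies on the minus strand of chromosome 18 from 61397835 to 61397900 (GRCm38, GENCODE M21), on the same strand as its host Ppargc1b, and overlaps the annotated miRNA gene Gm25301 on the opposite strand. Only the 3p row of mir-378a held reads. Expression of Ppargc1b was not analysed here.

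The rows of the family were also compared by how their levels moved over the 15 libraries, as Pearson's r of log2 CPM. The libraries share their scaling factors and group differences, and r is given as a description. Mir-378a-3p and mir-378d-5p moved together (r = 0.81, and 0.72 with group means removed), as did mir-378c-5p and mir-378d-5p (0.73 and 0.67) and, less closely, mir-378a-3p and mir-378c-5p (0.52 and 0.58). Mir-378b-3p moved the other way, with r = -0.53, -0.66 and -0.77 to mir-378a-3p, mir-378c-5p and mir-378d-5p. With group means removed, these values were 0.13, 0.11 and -0.02.

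Among the 177 rows with more than 10 reads in every library, the 3 outside the family most like each member were named, with r after removal of group means given second. For mir-378a-3p these were mir-1839-5p (0.85 and 0.85), mir-1843b-5p (0.84 and 0.80) and mir-16-1-3p (0.75 and 0.74), which changed little when group means were removed. For mir-378c-5p they were mir-1194-3p (0.82 and 0.63), mir-101c-3p (0.81 and 0.61) and mir-28a-3p (0.73 and 0.43). For mir-378d-5p they were mir-3966-5p (0.82 and 0.43), mir-101c-3p (0.80 and 0.50) and mir-1839-5p (0.74 and 0.71). The likeness of mir-378b-3p to rows outside the family was lower, with mir-101a-5p (0.67 and -0.03), mir-9769-3p (0.59 and 0.48) and mir-376b-3p (0.54 and -0.22).

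Other miRNAs known for energy or lipid metabolism or for muscle mitochondria were set beside the family. The list had 40 rows, of which 19 held reads and 14 were tested in each comparison. None of the 14 tested passed the FDR between AGAT-/- and wt mice or between AGAT-/-hArg and AGAT-/- mice, and 1 passed between AGAT-/-hArg and wt mice. The median log2 fold changes of the 14 rows were -0.03, 0.01 and 0.06 in these comparisons, beside -0.04, 0.02 and 0.02 for all rows tested. The row that passed was mir-499-5p, a miRNA from an intron of a myosin gene, higher in AGAT-/-hArg mice by 0.43 on the log2 scale (SE 0.10, FDR = 0.0131). Without wt mouse 5 or AGAT-/-hArg mouse 15 it did not pass, and 0 rows of the list were called. In AGAT-/- against wt mice its value was 0.36 (FDR = 0.0639). The rows of the list with the most reads were mir-181c-3p (22306 reads over the 15 libraries), mir-499-5p (6290) and mir-133a-2-5p (3305), all far below mir-378a-3p with 3065266. The list was therefore examined in part only. Both arms of mir-33 and mir-23a were listed at 0, as were single arms of others, among them mir-210-3p, mir-107-3p, mir-181c-5p, mir-143-3p, mir-1a-3p and mir-133a-3p, and no change of these arms could be measured from the table. For AGAT-/- against wt mice the paper lists mir-210-3p, mir-107-3p and mir-181c-5p as significant, although the counts used here hold them at 0. It also lists mir-210-5p and mir-499-5p as higher, tested with another count model (DESeq2). Here both were higher too, by 0.39 (FDR = 0.0757) and 0.36 (FDR = 0.0639) on the log2 scale. They did not pass in the edgeR fit with TMM scaling and all mice. Mir-27b and mir-494 were not analysed here.

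MiRNAs that mark cell types of the heart were summed for each library, since a change in cell make-up and a change per cell cannot be told apart in LV tissue. Muscle markers (mir-1a, mir-133a, mir-208a, mir-208b, mir-499) had reads on 8 of 14 rows, and summed to 1795 to 2106 CPM in wt, 1923 to 2495 CPM in AGAT-/- and 1998 to 2375 CPM in AGAT-/-hArg mice. The 3p rows of mir-1a, mir-133a, mir-208a and mir-208b, among the defining muscle miRNAs, were listed at 0 in every library. The sum therefore rests on their 5p rows and on both arms of mir-499. Mir-208a-5p had between 29 and 67 reads. Of these muscle rows only mir-499-5p passed the FDR, between AGAT-/-hArg and wt mice. No row of the endothelial, smooth muscle and fibroblast, or blood lists passed in any comparison with TMM scaling and all mice. Few were tested in a comparison, 1 to 2 endothelial, 2 to 3 smooth muscle and fibroblast and 5 to 6 blood rows. The rows of these lists with the most reads were mir-126a-3p (100 reads over the 15 libraries), mir-145a-3p (79253) and mir-486a-5p (21203). Mir-126a-3p had only 3 to 13 reads in a library. Summed levels of wt, AGAT-/- and AGAT-/-hArg mice were 12.7 to 29.3, 8.33 to 28.9 and 12.5 to 25.6 CPM for endothelial markers, 9464 to 11915, 10506 to 13941.5 and 9855 to 16707 CPM for smooth muscle and fibroblast markers, and 6560.1 to 7944, 6422 to 8049 and 6425 to 8036 CPM for blood markers. Mir-199a and mir-451a, defining fibroblast and red cell miRNAs, were listed at 0, and mir-214 was not analysed here. Ranges of all lists overlapped between the groups, and their part in the changes of mir-378b-3p and mir-378d-5p was not tested.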

How the data were processed

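MiRNA of LV tissue was sequenced from 15 mice (5 wt, 5 AGAT-/-, 5 AGAT-/-hArg), 1 library per mouse, and grouped by the labels. The authors mapped reads with the CLC Genomics Workbench to murine miRBase miRNAs and deposited raw counts of reads per mature miRNA, with no normalization. The miRBase release, the mismatches allowed and the counting of reads that match several miRNAs are not given in the sources used here. MiRNAs whose reads over both groups compared exceeded 10 were tested by edgeR 4.0.16 (TMM, glmQLFit, glmQLFTest; R 4.3.3) with Benjamini-Hochberg adjustment over all rows tested, at an FDR of at most 0.05. CPM used TMM factors over the 15 libraries, and log2 CPM a prior count of 1. Shares were compared by exact permutation tests with Python 3.11.15. Alternatives were DESeq2 1.42.0, limma-voom (limma 3.58.1), other scalings and filters, a common fit, and leaving out each mouse. The edgeR fit was tested on simulated data. The rows with the most reads, mir-378a-3p, mir-378c-5p and mir-378d-5p among them, were left unchanged there. Recovery of changes in these rows was therefore not tested. Named miRNAs were the family, the 3 rows most like each member, the listed rows called or with the most reads, and the row next in reads. The members and lists were chosen with earlier results of these data known. Limits from counts cover counting error only. The labels describe littermates without saying which share a litter, so the tests treat mice as independent.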

Additional observations from a re-analysis of the deposited data

Results flagged for a closer look

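The level of mir-378d-5p in AGAT-/- mouse 9, 73580.7 CPM, lay apart from the other 4 AGAT-/- mice, which were between 80447.5 and 80999.6 CPM. The gap to the nearest mouse was 0.926 of the range of the group, above Dixon's critical value of 0.71 for 5 samples. As a share of all reads of a library this mouse was also lowest, at 7.32% beside 7.65% to 8.37%, but was not flagged. Of 63 groups of 5 mice examined, 1 was found in this way, no more than the roughly 1 in 20 that chance finds. Without this mouse, mir-378d-5p passed the FDR between AGAT-/-hArg and AGAT-/- mice (log2 fold change -0.24, FDR = 0.0397), against -0.20 (FDR = 0.0563) with it. It passed in 4 of 10 such fits without a mouse (FDR 0.0023 to 0.198).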

How the results depend on the processing

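Mir-378b-3p passed between AGAT-/-hArg mice and both other groups under all 8 other fits and without any single mouse, and mir-378d-5p passed against wt mice under all 8 other fits (log2 fold change -0.27 to -0.16) and in 8 of 10 fits without a mouse. Between AGAT-/-hArg and AGAT-/- mice, 2 mir-378 rows in place of 1 passed with DESeq2 size factors (mir-378d-5p FDR = 0.0413), limma-voom (0.013) or rows with at least 1 read (0.036), and 1 to 2 without a mouse (2 without AGAT-/- mouse 9 or 10 or AGAT-/-hArg mouse 13 or 14). The FDR of mir-378d-5p there reached 0.24 in the other fits (3 of 8 passed) and 0.198 without a mouse (4 of 10 passed). All rows called there numbered 8 with at least 1 read, 2 with more than 10 reads in every library and 3 to 6 without a mouse. Against wt mice, AGAT-/-hArg calls numbered 28 with at least 1 read (in place of 17), and 10 to 20 without a mouse (11 without wt mouse 5 and 10 without AGAT-/-hArg mouse 15), of which 1 to 2 were mir-378 rows. Mir-378a-3p passed there in 2 of 8 other fits, with limma-voom (FDR = 0.0233) and in the common fit (0.0441). Its log2 fold change over the 8 fits was -0.16 to -0.05, the weakest with total counts (FDR = 0.519). Calls between AGAT-/- and wt mice numbered 8 to 18 under other fits and 8 to 17 without a mouse, of which 0 were mir-378 rows. Signs turned for mir-378b-3p between AGAT-/- and wt mice with total counts (0.0030) or at least 1 read (0.00028) and without a mouse (-0.054 to 0.043, share -0.00096 to 0.0065 points), for mir-378a-3p between AGAT-/-hArg and AGAT-/- mice with total counts (0.011), for mir-378c-5p between AGAT-/-hArg and wt mice with total counts (0.040), and for the share of mir-378d-5p between AGAT-/- and wt mice as a log2 ratio to mir-378a-3p (0.04) or without a mouse (-0.25 to 0.088 points). The cause was not tested. Of the shares, 2 to 2 passed between AGAT-/- and wt mice without a mouse, 2 to 4 between AGAT-/-hArg and AGAT-/- and 2 to 3 between AGAT-/-hArg and wt; as log2 ratios to mir-378a-3p, 1 passed between AGAT-/- and wt mice. Mir-499-5p did not pass without wt mouse 5 or AGAT-/-hArg mouse 15, and passed between AGAT-/- and wt mice under 6 of 8 other fits. No paired analysis was possible because the groups share no mouse numbers. Depth limits mir-378b-3p, whose counting error in wt mice was close to its spread. Why the opposite arms are at 0 was not tested.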
